A study of Mus musculus with 3 samples.

Results

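The subunits of the interleukin-12 cytokine family were followed in mouse bone marrow-derived dendritic cells. The set held the genes Il12a, Il12b, Il23a and Ebi3, 4 of the 18193 genes to which the array's annotation gave at least 1 probe set of their own. A probe set is a group of short array probes against 1 transcript. Il12b had 2 such probe sets and the others 1 each, 5 in all of 34945 probe sets given to a single gene. The genes were picked by name, not by their values.

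The arrays held cells given lipopolysaccharide (LPS, 10 ng/ml) with 8-Br-cAMP (100 µM) for 3 h, cells given LPS at the same dose for 3 h, and unstimulated cells. All came from bone marrow that had grown with GM-CSF (10 ng/ml), a myeloid growth factor, over 10 days. The labels give no strain, sex, genotype or animal age, and no matching incubation time for the unstimulated cells. LPS is a bacterial membrane component sensed by Tlr4, and 8-Br-cAMP mimics the messenger cyclic AMP and can cross the cell membrane. With 1 array per condition, none of the differences could be checked against replicates, and no p-value or standard error is given.

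Cytokines of this family are pairs made of an alpha chain, which folds like interleukin-6, and a beta chain that resembles a soluble cytokine receptor. The beta chain p40, from Il12b, pairs with p35, from Il12a, to form interleukin-12, and with p19, from Il23a, to form interleukin-23. The beta chain from Ebi3 pairs with p28, from Il27, to form interleukin-27, and with p35 to form interleukin-35. Dendritic cells are a main source of interleukins 12, 23 and 27. Interleukin-12 is best known for driving T helper 1 cells and interleukin-23 for sustaining T helper 17 cells.

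Signals are scaled probe set signals, that is, the deposited signal times a factor that brings the 3 arrays to a common average. Signals under 32.5, the floor, were set to it before log2 was taken, and a difference against a signal under the floor is a lower bound. Genes with a signal over the floor on either array of a comparison were taken as measured in it. They are called higher or lower from 2-fold on. The scatter within the arrays was described by pairs of probe sets of the same gene. It gave the log2 difference of a single probe set an SD of 0.45 for LPS against unstimulated cells, 0.48 for LPS+8-Br-cAMP against LPS and 0.57 for LPS+8-Br-cAMP against unstimulated cells. This SD is called the probe set error below. It does not hold the spread between cultures. Levels of different genes are not compared, since probe sets differ in brightness.

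All 3 arrays carried markers of the labelled cell type and of others. All 8 dendritic cell markers, such as Itgax, Cd74 and Flt3 (the last only just, at 36.8 with LPS), were above the floor on every array. So were all 8 macrophage markers, except Marco on the unstimulated array, and all 9 granulocyte markers with a probe set. Before scaling, the median signal was 19.8 on the LPS+8-Br-cAMP array, against 33.4 on the LPS array and 42.6 on the unstimulated one, so the first was the dimmest. Fewer cells of a type and less RNA per cell cannot be told apart in such cultures.

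Windows of 250 bases before the annotated start are shown from RefSeq (GRCm38.p6), since the subunits differed in direction with the analogue. The table matched 3 of the 4 genes, Il12a with 2 starts, Il12b and Ebi3 with 1 each. Il23a lies at chr10:128296140-128298084. All windows are on the plus strand and end at the base before the start. Capitals mark the letters GGGAA on either strand, a half-site of the NF-kB factors that LPS activates.
Il12a, first start, chr3:68690394-68690643: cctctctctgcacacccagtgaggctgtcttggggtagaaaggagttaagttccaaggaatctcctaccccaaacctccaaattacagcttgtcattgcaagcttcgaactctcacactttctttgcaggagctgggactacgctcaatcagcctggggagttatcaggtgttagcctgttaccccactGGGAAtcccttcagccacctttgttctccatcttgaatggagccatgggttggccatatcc
Il12a, second start, chr3:68691174-68691423: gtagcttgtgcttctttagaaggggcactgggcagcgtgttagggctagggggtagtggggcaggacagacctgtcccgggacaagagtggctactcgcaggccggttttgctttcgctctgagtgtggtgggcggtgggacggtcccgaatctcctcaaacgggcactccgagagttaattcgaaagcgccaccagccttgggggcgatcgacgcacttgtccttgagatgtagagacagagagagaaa
Il12b, chr11:44399813-44400062: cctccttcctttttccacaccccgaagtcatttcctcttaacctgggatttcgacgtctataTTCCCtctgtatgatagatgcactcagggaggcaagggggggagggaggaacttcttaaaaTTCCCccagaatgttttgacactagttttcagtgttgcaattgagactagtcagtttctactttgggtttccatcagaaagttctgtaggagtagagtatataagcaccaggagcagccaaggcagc
Ebi3, chr17:55952373-55952622: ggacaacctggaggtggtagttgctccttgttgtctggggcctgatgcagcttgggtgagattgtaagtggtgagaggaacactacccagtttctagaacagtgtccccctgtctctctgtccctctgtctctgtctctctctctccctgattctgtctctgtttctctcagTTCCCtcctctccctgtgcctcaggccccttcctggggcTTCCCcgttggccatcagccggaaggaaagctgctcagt

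The half-site lay once before the first start of Il12a, at 61 bases, and 0 times before its second start. It lay at 188 and 127 bases before the start of Il12b, and at 78 and 39 bases before that of Ebi3. It is a common word, found in 56.2% of 32851 such windows of all genes. The longer NF-kB decamer, found in 7.25% of windows, lay before Ebi3 alone of these 3 genes, at 44 bases, overlapping the half-site at 39. The cAMP response element TGACGTCA (1.55% of windows), its shorter core TGACG (17.8%), the AP-1 site TGANTCA (6.75%) and the core of the interferon-stimulated response element (2.98%) were in none of the 4 windows on either strand. AGGAAG, a core for the myeloid factor PU.1 (29.5%), lay once before Il12b, at 246 bases, and once before Ebi3, at 50 bases. These are matches of letters only, searched after the windows had been read.

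LPS against unstimulated cells asks how the subunits differ between an LPS-treated culture and a resting one. With LPS, 4 of the 4 subunits passed 2-fold upward, as did 6.64% of 12283 measured genes, and 0 passed it downward, as did 13.0%. Il12b was 8.86-fold higher, Il12a and Il23a were lifted over the floor, and Ebi3 had the smallest difference of the 4.

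Il12b (chr11:44400063-44414677) encodes the p40 chain that interleukins 12 and 23 share. By its brightest probe set (1419530_at) it had a signal of 1377 with LPS, against 155 in unstimulated cells. By its second probe set (1449497_at) it had 1269 with LPS, against 86.1 in unstimulated cells. The log2 differences were 3.15 and 3.88, 8.86-fold and 14.7-fold. Both probe sets, designed from the same transcript, were above the floor on every array, and the resting signal is where they parted most.

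Il12a (chr3:68690644-68698550) encodes p35, the chain that sets interleukin-12 apart. It had 338 with LPS and 28.7, under the floor, in unstimulated cells, which makes it at least 10.4-fold higher (log2 3.38). Il23a encodes p19, the chain that sets interleukin-23 apart. It had 164 with LPS and 6.34, well under the floor, in unstimulated cells, at least 5.05-fold higher (log2 2.34). With a floor at the 75th percentile the bound for Il23a was 0.59, under 2-fold. Because both lay under the floor at rest, their true differences are not known and cannot be ranked against each other or against Il12b. Among all measured genes, with such bounds taken as they stand, Il12a ranked 93, Il12b 111 and Il23a 203 from the highest.

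Ebi3 (chr17:55952623-55957022) was the subunit with the most signal at rest relative to its own signal with LPS. It had 1145 with LPS, against 498 in unstimulated cells, 2.30-fold higher (log2 1.20, rank 621). That is 2.67 times the probe set error. The call was lost under scaling by the hybridisation spikes (0.87) and with the signals as deposited (0.92), while its sign was positive under every setting tried.

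**Figure D1:**
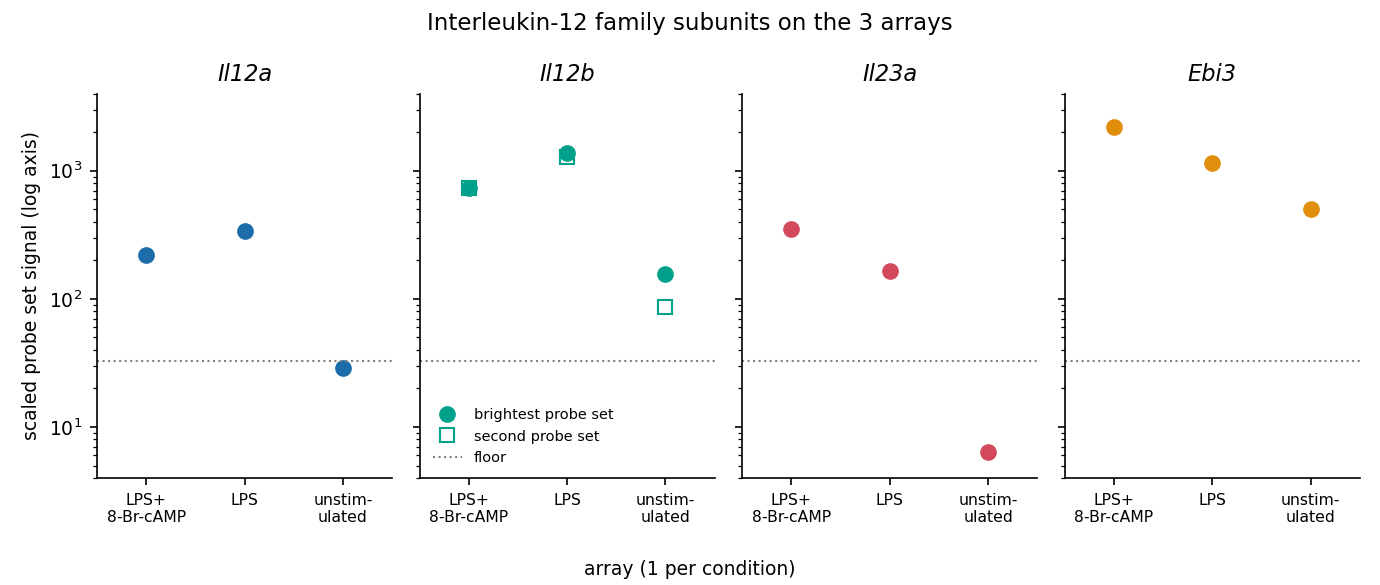
Scaled probe set signal (log axis) of Il12a, Il12b, Il23a and Ebi3 on the LPS+8-Br-cAMP, LPS and unstimulated arrays, 1 array each, with the floor as a dotted line and the second probe set of Il12b as open squares. Il12a and Il12b are highest with LPS, Il23a and Ebi3 with LPS+8-Br-cAMP, and heights are to be compared within a panel only.

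LPS+8-Br-cAMP against LPS sets 2 cultures side by side. They differ in the analogue and also in the sex of the cells, read from Xist and Y-linked transcripts given below. The words "with the analogue" name the LPS+8-Br-cAMP array and do not assign a difference to the analogue. The subunits lay on both sides of 0: Il23a and Ebi3 had more signal with the analogue, and Il12a and Il12b less. Of the 4 genes 1, Il23a, was at least 2-fold higher, where 6.49% of 12572 measured genes were, and 0 were at least 2-fold lower, where 5.81% were. So by count of calls the family does not stand out. The median of all measured genes was 0.049, so 4 unrelated genes could lie on both sides of 0 as well. Of all measured genes, 4.90% lay above Il23a, 7.68% above Ebi3, 7.43% below Il12b and 14.6% below Il12a.

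Il23a had 351 with LPS+8-Br-cAMP, against 164 with LPS, 2.14-fold higher (log2 1.10). That is 2.29 times the probe set error, and it ranked 617 from the highest. With the signals as deposited its log2 difference was 0.29, under 2-fold. Ebi3 had 2182 with LPS+8-Br-cAMP, against 1145 with LPS (log2 0.93, 1.91-fold), 1.94 times the probe set error. It passed 2-fold under spike scaling only (1.07).

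Il12b had 734 and 728 by its 2 probe sets with LPS+8-Br-cAMP, against 1377 and 1269 with LPS. The log2 differences, -0.91 and -0.80, lay closer together than the probe set error, and the first was 1.89 times that error. Il12a had 220 with LPS+8-Br-cAMP, against 338 with LPS (log2 -0.62). This was the smallest of the 4 differences, at 1.30 times the probe set error, and 14.6% of measured genes had a lower value. Neither was past 2-fold except with the signals as deposited, at -1.72 for Il12b and -1.43 for Il12a.

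The distance between subunits depends less on how the arrays are scaled, because a common factor leaves it unchanged when all signals are above the floor. In this comparison the log2 difference of Il23a lay 2.00 above that of Il12b, 4.01-fold, and 1.72 above that of Il12a, 3.29-fold. That of Ebi3 lay 1.84 above Il12b and 1.55 above Il12a. Within the pairs the distances were small, 0.17 between Il23a and Ebi3 and 0.29 between Il12a and Il12b. For scale, 2 probe sets of the same gene differed in this comparison with an SD of 0.68. That SD is not the spread of distances between different genes, which was not computed. The pairs were also formed by the signs seen here, so distances across them are large by choice. The 4 distances across the pairs ran from 1.34 to 2.06 over 10 settings, of which quantile normalization, cyclic loess, the pseudocount and the mean over probe sets were able to move them. The signals as deposited moved all 4 genes down together and left these distances as they were.

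**Figure D2:**
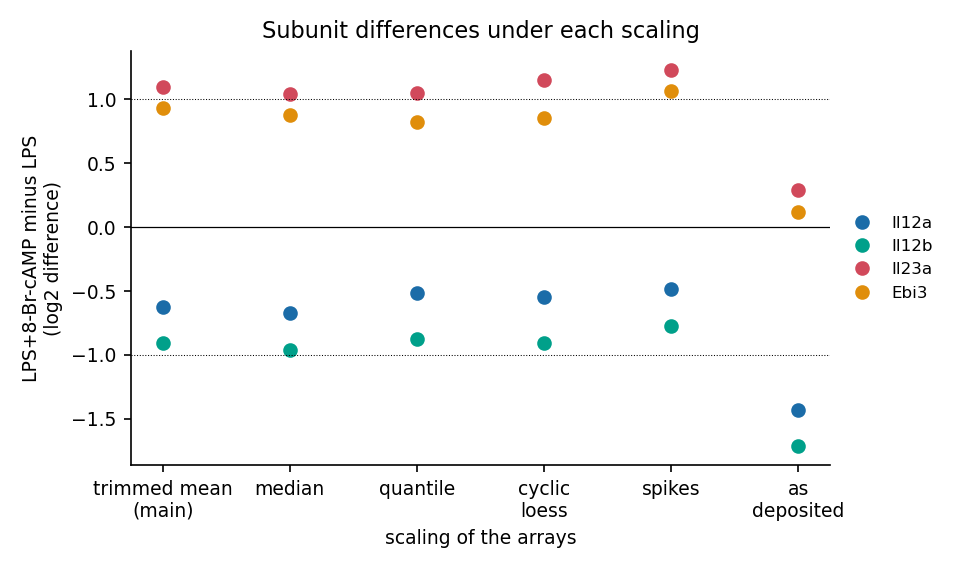
Log2 difference, LPS+8-Br-cAMP minus LPS, of each subunit (points) under 6 ways of scaling the arrays, with dotted lines at 2-fold. Il23a and Ebi3 stay above 0 and Il12a and Il12b below 0 under each, and all 4 drop together with the signals as deposited, Il23a to 0.29 and Ebi3 to 0.12.

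These directions go with other differences between the cultures. All 9 measured granulocyte markers were lower with LPS+8-Br-cAMP, 6 of them at least 2-fold, and their summed signal was 19330, against 39456 with LPS and 39418 unstimulated. None of the 9 was under the floor on any array. Eosinophil markers summed to 491, against 1405 and 1319 in the same order of arrays. Those of mast cells and basophils summed to 136, against 335 and 433, and those of B and plasma cells to 206, against 2162 and 4076. Against LPS, Siglecf of the eosinophil list (0.064) and Fcer1a of the mast cell and basophil list (0.10) were not lower. In the B and plasma cell list Ighm (-4.83 against LPS) and Jchain (-4.02) carried the difference. Its median difference against LPS was -0.38, and Cd79b (0.10) and Pax5 (0.67) had positive ones. T cell markers were above the floor in 0, 1 and 2 of 5 cases and NK cell markers in 2, 1 and 2 of 3. Xist, expressed from the inactive X chromosome of female cells, had 1716 with LPS+8-Br-cAMP, against 8.08 with LPS and 32.3 unstimulated. The Y-linked genes Eif2s3y, Uty and Kdm5d were under the floor there, 3 of 3, and above it on both other arrays. By these transcripts the LPS+8-Br-cAMP array held female cells and the other arrays male cells, so the donor animals differed. Dendritic cell markers summed to 40801 with LPS+8-Br-cAMP, against 30406 with LPS and 25906 unstimulated, and 1 of 8, Ccr7, was past 2-fold against LPS. Of the 8, 3 were lower than with LPS, Itgax (-0.21), Zbtb46 (-0.35) and Ciita (-0.19), and the median difference was 0.22. Macrophage markers summed to 19212, against 22194 and 24042 in the same order, with Mrc1 at least 2-fold higher and Mertk at least 2-fold lower than with LPS. Of these 8, 5 were lower than with LPS, and the median difference was -0.41. The part of these in the subunit differences was not tested. With 1 array per condition it cannot be told apart from that of the analogue.

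LPS+8-Br-cAMP against unstimulated cells gives the level that each subunit had on the array with both agents. These cultures, too, differ in the sex of the cells and in granulocyte transcripts, so no difference is assigned to the agents. Here 4 of the 4 subunits passed 2-fold upward, as did 9.36% of 12793 measured genes, and 0 downward, as did 15.8%. Il23a was at least 10.8-fold higher, with 351 against 6.34. Il12a was at least 6.75-fold higher, with 220 against 28.7. Il12b was higher by 2.24 on the log2 scale, 3.08 by its second probe set, and Ebi3 by 2.13. Il12a and Il12b thus had well over their resting signal, though less than with LPS alone by under 2-fold. Il23a and Ebi3 had their highest signal here, Ebi3 by under 2-fold over LPS. This comparison shares an array with each of the others and is no independent support for them.

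**Figure D3:**
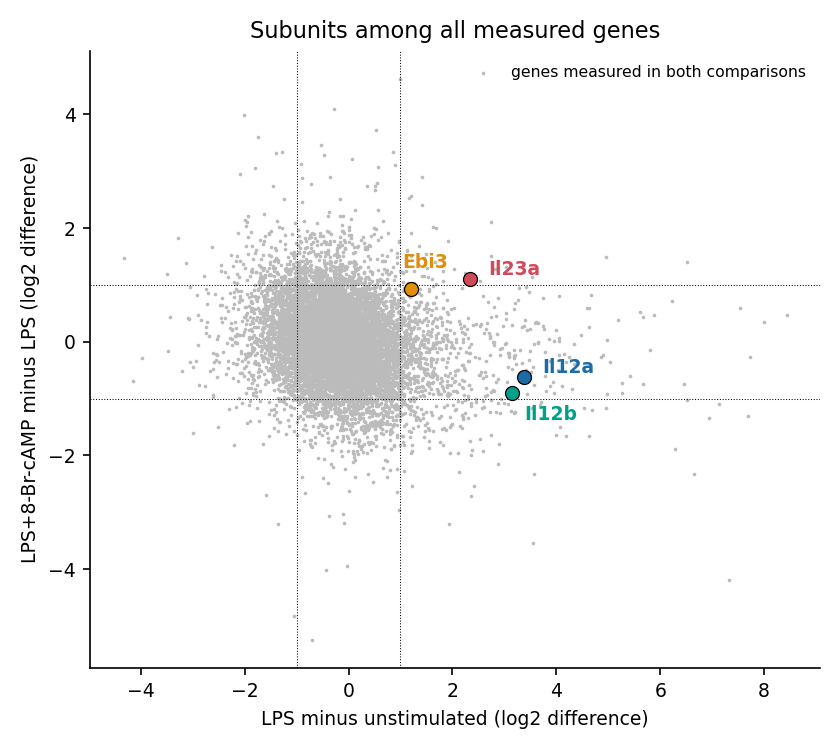
Each gray point is a gene measured in both comparisons, placed by its log2 difference for LPS minus unstimulated (x axis) and for LPS+8-Br-cAMP minus LPS (y axis), with dotted lines at 2-fold. The 4 subunits all lie right of the 2-fold line for LPS, Il23a and Ebi3 above 0 and Il12a and Il12b below 0 on the y axis, and the LPS array enters both axes with opposite sign.

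The genes nearest to each subunit in this plane were taken by their straight-line distance over the 2 log2 differences, which rest on 3 arrays, among 9420 named genes with a signal of at least 2 times the floor. Nearest to Il12a was Aldh1a2, a retinoic acid synthesis enzyme, at 293 with LPS+8-Br-cAMP, 456 with LPS and 43.9 unstimulated (distance 0.014). Trim30d and Peli1, a ubiquitin ligase, followed at 0.14 and 0.24. Nearest to Il12b were Fgl2 (0.052), Adamts4, a matrix protease (0.11), and the transcription factor Irf1 (0.21). Nearest to Il23a were Dcstamp, a cell fusion protein of osteoclasts (0.038), the fatty acid receptor Gpr84 (0.14) and Abtb2 (0.19). Nearest to Ebi3 were the proteasome subunit Psma6 (0.052), Ier3 (0.060) and the phosphatase Ptpn2 (0.11). For Il12a and Il23a the place on the LPS axis is a lower bound, so their neighbours could differ with a true resting level. Those of Il12b rest on its brightest probe set, and its second lay 0.73 higher on that axis, farther than all 3 neighbours.

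Of the receptor chains, Il12rb1, the chain that the receptors of interleukins 12 and 23 share, had 59.4 with LPS+8-Br-cAMP, 44.6 with LPS and 56.7 unstimulated. Il12rb2, the signalling chain for interleukin-12, had 35.2, 64.1 and 7.33 in the same order. Il27ra, the interleukin-27 receptor chain, was above the floor with LPS alone, at 42.5. Il6st, the gp130 chain that interleukin-27 uses as well, had 161, 159 and 470. Of the 4 measured, 0 were at least 2-fold higher with LPS, where 6.64% of all measured genes were. The 1 lower, where 13.0% were, was Il6st at -1.56 (its other probe sets from -1.23 to -0.92). Counts from 4 genes do not stand out from these shares. With the analogue against LPS 0 passed 2-fold by their brightest probe sets, where 6.49% of all measured genes were higher and 5.81% lower. There Il6st read 0.024 by its brightest probe set, but 0.50 to 1.23 by its 3 others, the highest past 2-fold. The medians were 0.019 with LPS, where that of all measured genes was -0.21, and -0.18 with the analogue, where it was 0.049. Il12rb2 was just short of 2-fold higher with LPS (at least 0.98) and passed under median scaling, quantile normalization or cyclic loess, which raised the count to 1. Il27 and Il23r were not analysed here.

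Below the receptors, Jak2 and Tyk2 are the kinases of interleukins 12 and 23, and Stat4 and Stat3 the factors they activate. With LPS, Jak2 was higher by 1.97, and by their brightest probe sets it was the 1 of 5 measured members past 2-fold. Of all measured genes 6.64% were higher and 13.0% lower there. Other probe sets read -1.78 for Tyk2 and up to 1.23 for Stat3 there. With LPS+8-Br-cAMP against LPS, Stat4 had 1138 against 433 (1.39) and Stat3 had 3661 against 1601 (1.19). Tyk2 had 130 against 383 (-1.56), but its second probe set was past 2-fold the other way, so its direction is not settled. The 3 other probe sets of Stat3 ran from -0.89 to 1.25. That made 2 of 5 higher and 1 lower (median 0.58), where 6.49% and 5.81% of all measured genes were and their median was 0.049. The count was 1 higher and 1 lower under quantile normalization, and 0 higher and 1 lower with the signals as deposited.

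Transcription factors and cofactors known to act on the subunit genes lay on both sides. With LPS, 6 of 17 measured were at least 2-fold higher and 1 lower, where 6.64% and 13.0% of all measured genes were. The median was 0.58, against -0.21 for all measured genes. Nfkbiz, a nuclear cofactor of NF-kB needed for Il12b in mouse macrophages, was higher by 4.05. Irf1, an activator of Il12a and Il12b, was higher by 3.06, the NF-kB subunit Rel by 1.81, the repressor Atf3 by 1.63 and Ets2 by 1.48, although another probe set of Ets2 read -0.14. Maf, a repressor of interleukin-12 genes, differed by -1.30, and its other probe sets from -2.22 to -0.0043. Over 6 scalings, 5 or 6 of the 17 were higher and 1 to 3 lower.

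With LPS+8-Br-cAMP against LPS, 4 of these 17 were at least 2-fold higher and 5 lower, where 6.49% and 5.81% of all measured genes were. Both counts exceeded those shares, while the median, 0.021, was near the 0.049 of all measured genes. This list, like the other gene lists, was chosen with earlier results of these data known, so such an excess supports nothing. Lower were Irf1, with 1801 against 3870 (-1.10), Irf8, with 998 against 2455 (-1.30), and Spi1, which encodes PU.1, with 275 against 771 (-1.49). All 3 are known activators of Il12b or Il12a. Irf8, Irf1 and Rel are named here after their values were seen, and no other member of the list was chosen blind to these data. Atf3 (-1.58) and the AP-1 subunit Jun (-1.77, but -0.27 by its second probe set) were lower as well. Higher were Fos (2.89), Nfil3, a repressor of Il12b (1.76), Ets2 (1.55, but 0.10 by another probe set) and Rel, known to act on Il23a, Il12a and Il12b, with 423 against 202 (1.07). The count was 1 higher and 5 lower with the signals as deposited and 5 higher and 4 lower under spike scaling. Activators and repressors stood among the higher and among the lower genes.

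**Figure D4:**
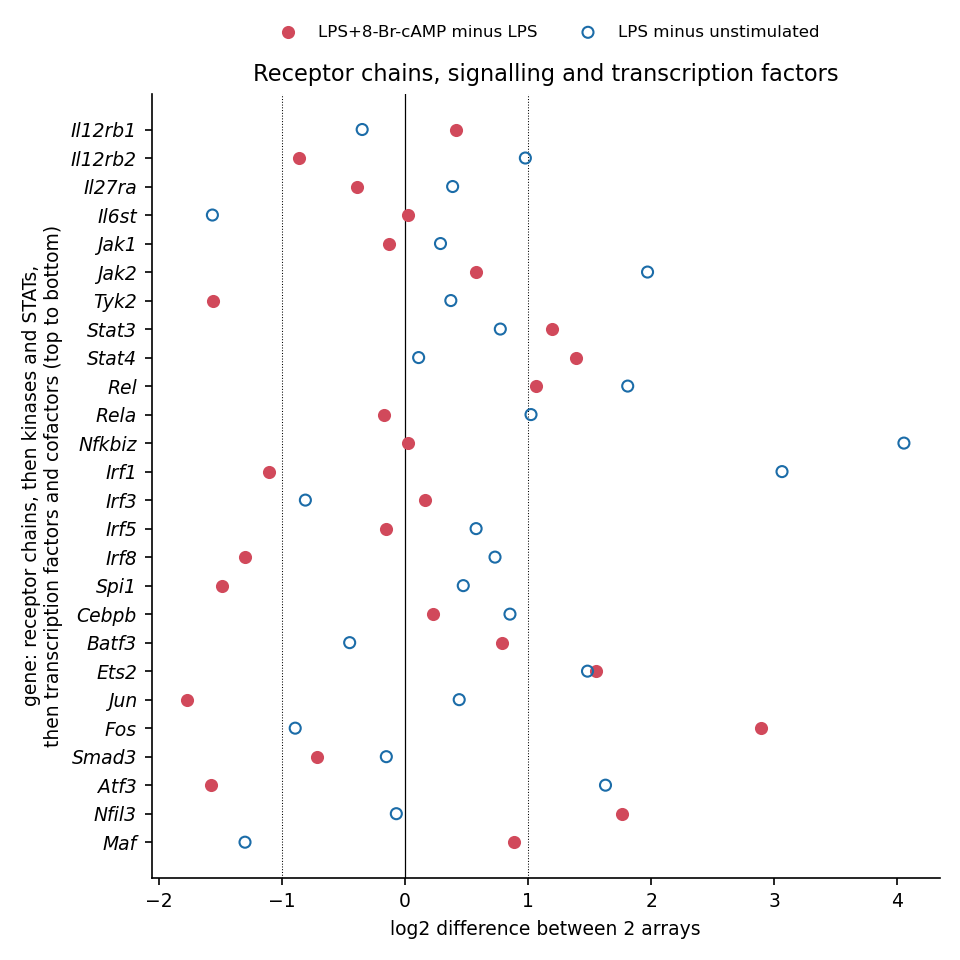
Log2 differences of receptor chains, signalling genes and transcription factors for LPS+8-Br-cAMP minus LPS (filled) and LPS minus unstimulated (open), with dotted lines at 2-fold. Irf1, Irf8, Spi1, Jun, Atf3 and Tyk2 lie past 2-fold on the low side with the analogue, and Fos, Nfil3, Ets2, Stat4, Stat3 and Rel on the high side.

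Ligands and receptors known to raise or lower interleukin-12 had 7 of 15 measured members at least 2-fold higher and 1 lower with LPS (median 0.82). Of all measured genes 6.64% were higher and 13.0% lower there, with a median of -0.21. The costimulatory receptor Cd40 was higher by 5.27, and Ifngr1, a chain of the interferon gamma receptor, differed by -2.46. With the analogue against LPS, 3 of 16 were higher and 2 lower (median 0.078), beside 6.49% and 5.81% of all measured genes (median 0.049). Higher were Il10, which restrains interleukin-12 (at least 2.85), Ifngr1 (1.35) and Ptger2, a prostaglandin E2 receptor that raises cAMP (1.03, under 2-fold with median scaling, quantile normalization and the signals as deposited). Ifnb1 and the receptor chain Il10ra were lower, by values of -1.64 and -1.28. Cd40 read -0.91 by its brightest probe set and -1.44 and -1.39 by its 2 others. With the signals as deposited 1 was higher and 5 lower.

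Other signals by which dendritic cells polarise T cells had 7 of 11 measured members at least 2-fold higher with LPS (median 2.16), where 6.64% of all measured genes were (median -0.21). With the analogue 1 of 12 was higher, the costimulatory ligand Tnfsf4 (1.42), and 1 lower, Tnf (-4.20), with a median of 0.14. Of all measured genes 6.49% were higher and 5.81% lower, so these counts lie near the background. Il1b and Il6, cytokines that act beside interleukin-23 on T helper 17 cells, differed by 0.68 and 0.59, but by -0.13 and -0.22 with the signals as deposited, where 0 members were higher and 3 lower.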

How the data were processed

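Gene expression of mouse bone marrow-derived dendritic cells was measured on 3 Affymetrix mouse arrays, 1 per condition, and columns were matched to conditions by their sample names. The authors deposited linear intensity values, 1 per probe set. Per the submitters' processing notes, MAS5 was the tool; which version, target and settings is not given in the sources used here. The arrays were grouped by the agent in the labels.

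Of 45101 probe sets 64 controls were left out. GEO's platform annotation gave 1 gene for 34945, several for 932 and none here for 9160. Symbols were updated through RefSeq's gene table (GRCm38.p6). Arrays were multiplied by 1.63 (LPS+8-Br-cAMP), 0.929 (LPS) and 0.763 (unstimulated), which brought the means trimmed by 2% at each end, 63.2, 111 and 135, to their average. The floor was the highest array median after scaling. Where a gene had several probe sets, the brightest on average stood for it. No detection calls were used, and precision is limited by there being 3 arrays.

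The members, gene lists, marker lists and alternatives were chosen with earlier results of these data known. Every probe set of the 4 subunits is given, with receptor chains, up to 6 members of each list past 2-fold per comparison and the 3 genes nearest to each subunit. Steps were tested on simulated data. Python 3.11.15, R 4.3.3 and limma 3.58.1 were used. Motif letters were searched on both strands of RefSeq promoter windows.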

Additional observations from a re-analysis of the deposited data

How the results depend on the processing

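Over 12 subunit differences (4 genes, 3 comparisons) and their alternatives, the sign was kept in 117 of 117 values, 101 of which moved by less than the probe set error. Of the 117, 34 were equal to the reported value by construction (a floor below both signals, or a choice of probe set that left the gene's own in place), so they say nothing about stability, and 83 differed from it. No paired analysis was possible because each condition has 1 array, and no array could be left out. Leaving out probe sets of other types than _at removed Il12a. With the signals as deposited, LPS+8-Br-cAMP minus LPS was -1.43 for Il12a, -1.72 for Il12b, 0.29 for Il23a and 0.12 for Ebi3. LPS+8-Br-cAMP minus unstimulated was then at least 1.66 for Il12a, 1.15 for Il12b, at least 2.34 for Il23a and 1.04 for Ebi3. The hybridisation spikes on the LPS+8-Br-cAMP array were 0.519 times those on the LPS array and the trimmed mean 0.571 times, so these values carry the dimness of that array. The median of all measured genes for LPS+8-Br-cAMP minus LPS was then -0.65, against 0.049 as scaled and 0.16 under spike scaling. Il23a and Ebi3 lay above it and Il12a and Il12b below it each time. These settings differ by a common factor per array, which moves genes and median together apart from the floor, so this says little about stability. For LPS minus unstimulated that median was -0.47 as deposited, -0.51 with spikes, -0.099 with cyclic loess and -0.21 as scaled. For LPS+8-Br-cAMP minus unstimulated it was -1.08, -0.32, -0.013 and -0.12 in that order. The lower bounds followed the floor. For LPS minus unstimulated, Il23a was at least 4.06 at a floor at the 25th percentile and 0.59 at the 75th, 3.01 with a pseudocount of 16, and Il12a at least 1.63 at the 75th. For LPS+8-Br-cAMP minus unstimulated, Il23a was at least 5.15 and 1.69 at these floors, 4.04 with the pseudocount, and Il12a at least 1.01 at the 75th.

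Counts of genes past 2-fold moved more. For LPS minus unstimulated, 815 were higher and 1597 lower. Spike scaling gave 526 and 2824, the deposited signals 2618 lower, the 25th percentile floor 1839 and 2640, the 75th 596 lower, and the mean over probe sets 994 lower. At 1.5-fold there were 1710 and 3516, at 3-fold 406 and 425. For LPS+8-Br-cAMP minus LPS, 816 were higher and 730 lower. Spike scaling gave 454 lower, the deposited signals 93 and 2882, the floors 2326 and 1873 or 302 and 304, and the mean over probe sets 472 and 432. At 1.5-fold there were 2271 and 1988, at 3-fold 182 and 154. For LPS+8-Br-cAMP minus unstimulated, 1198 were higher and 2018 lower. The deposited signals gave 286 and 6125, the floors 2691 and 3099 or 721 and 839, and the mean over probe sets 1286 lower. At 1.5-fold there were 2361 and 3774, at 3-fold 506 and 688. The cause was not tested for the mean over probe sets and spike scaling; a lower threshold or floor admits more genes by construction.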
